A study of Mus musculus with 41 samples.

Results

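The interferon-stimulated antiviral genes are a group of 44 genes whose transcription is known to rise when a cell senses type I interferon. They were chosen by name from a list of transcription factors, sensors and effectors of this response. All 44 were present among the 30175 gene names of the array, and 42 of them were among the 20881 genes that passed a filter on low signal and were tested. The 42 members exceeded the signal minimum of 10 in both channels on all 41 arrays. Oas1g did so on 20 arrays and Ddx60 on 3, and these 2 genes were left out of the tests. The tumors had grown from Trp53-null mammary duct fragments of BALB/c donors that were transplanted into cleared fat pads of wild-type female BALB/c mice, so stroma and immune cells came from a host that carries Trp53. The hosts received 1 of 4 diet regimens, namely a lifelong low fat diet (LFD), a lifelong high fat diet (HFD), HFD restricted to puberty (HFD-LFD) or HFD restricted to adulthood (LFD-HFD). The 29 epithelial tumors, labelled p53 variable, were 4 early and 4 late tumors of LFD, 4 and 4 of HFD, 3 and 4 of HFD-LFD and 3 and 3 of LFD-HFD. The 12 spindle cell tumors, 3 per regimen, were 3 early and 9 late ones. In the study, early tumors had a latency below a year and late tumors a latency of a year or longer. Onset is therefore bound up with the age of the host and its time on the diet. Each tumor was hybridised against Universal Mouse Reference RNA, pooled from 11 mouse cell lines, and a value below is the log2 ratio of tumor signal to reference signal.

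When a cell detects foreign or misplaced nucleic acid, it secretes type I interferon, which binds a receptor on the same and on neighbouring cells. The receptor's kinases activate transcription factors, among them STAT2, which acts with IRF9 and binds the interferon-stimulated response element in the promoters of many genes. The proteins made from these genes degrade viral RNA, block its translation, trap virions and strengthen sensing, and in tumors the same genes can be expressed without any virus.

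The promoters of some members spell out this element. The core GAAANNGAAA was searched on both strands in the 250 bases before each RefSeq start (GRCm38.p6). Of the members, 33 had a promoter window and 12 of these (36.4%) held a match, against 3.46% of the 27025 genes with a window. The match nearest the start lay between 12 and 222 bases before it, with a median of 70.5 bases, and 7 of the 12 members held more than 1 match. Shown here are the stretches of 5 members that represent different roles, with the matched bases in capitals and each sequence written 5' to 3' on the strand of the gene.
Ifit1: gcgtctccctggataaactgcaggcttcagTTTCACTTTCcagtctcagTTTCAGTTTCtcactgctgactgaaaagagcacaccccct
Isg15: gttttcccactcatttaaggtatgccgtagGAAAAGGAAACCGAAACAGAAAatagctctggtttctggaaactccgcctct
Oas1a: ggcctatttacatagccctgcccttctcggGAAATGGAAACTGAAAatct
Bst2: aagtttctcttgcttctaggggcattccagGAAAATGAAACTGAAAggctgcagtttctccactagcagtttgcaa
Stat2: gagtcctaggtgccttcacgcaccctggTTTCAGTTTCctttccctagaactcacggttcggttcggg
They lie at chr19:34640755-34640843 on the plus strand, chr4:156200845-156200926 on the minus strand, chr5:120907526-120907575 on the minus strand, chr8:71537557-71537632 on the minus strand and chr10:128270248-128270315 on the plus strand. In Isg15, Oas1a and Bst2 the matches overlap and form a run of repeated GAAA letters, whereas Ifit1 carries 2 separate matches that read on the opposite strand. A further pair shows how alike neighbouring members can be, with 65 of 66 compared bases identical between the start-proximal stretches of Trim30a and Trim30d.
Trim30a: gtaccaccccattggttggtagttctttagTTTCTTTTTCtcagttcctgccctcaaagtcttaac
Trim30d: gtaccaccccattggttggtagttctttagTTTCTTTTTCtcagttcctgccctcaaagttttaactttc
The stretches lie at chr7:104465194-104465259 and chr7:104507851-104507920, both on the minus strand. Promoter windows of Herc6, Irf7 and Ifi44 held no match to these letters. Mx1, Mx2 and Dhx58 were among the members without a window and so were not searched. Among tested members the early minus late difference described below had a median of 0.71 in the 10 with a match (0.49 to 1.81) and of 0.67 in the 21 without one (0.11 to 1.51).

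Some features of the arrays bear on every value. The labels place the tumor in Cy5 and the reference in Cy3, while the study's methods state the reverse, and with reversed dyes every signed difference below would turn. With the labels' dyes, the Y-linked genes Ddx3y (-7.64 to -3.90) and Eif2s3y (-8.65 to -2.59) were brighter in the reference channel on all 41 arrays, all 4 Y-linked genes measured were so on 14 arrays, and each array correlated with the mean of the others at r = 0.74 to 0.96 across genes. The tumor signal of the Trp53 probe was well above background on all 41 arrays, and whether it lies inside the deleted part was not tested. The spots well above background made up 52.4% to 94.9% of a tumor channel. On the array of tumor MSU_60L, which had the highest share of outlier spots, 11 members were missing, and tumor MSU_42L4B lacked 1 member. Both tumors shared a slide and a scan session of their own. The scanner files of HFD tumors MSU_40R4A, MSU_57R and MSU_65R correlated best with the matrix columns of MSU_65R, MSU_40R4A and MSU_57R, respectively, so the onset of MSU_57R and MSU_65R was in dispute. The arrays of the spindle cell tumors formed a scan session apart, with another scanner and software version, so that histology and session cannot be told apart.

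The members were brighter in tumors than in the reference almost throughout. Averaged over its measured members, the log2 ratio of a tumor ranged from 0.92 in the HFD spindle cell tumor MSU_M63L to 3.56 in the early HFD-LFD tumor MSU_107R. At least 35 of 42 members exceeded the reference in each tumor with all of them measured, and all 31 measured members did so in MSU_60L. In bulk tissue, fewer cells of a type and less RNA per cell cannot be told apart. The tumors at either end were extreme for most of the group. Tumor MSU_107R was among the 5 highest epithelial tumors for 33 members, and the late tumors MSU_109L and MSU_90R were among the 5 lowest for 38 and 35 members.

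**Figure D1:**
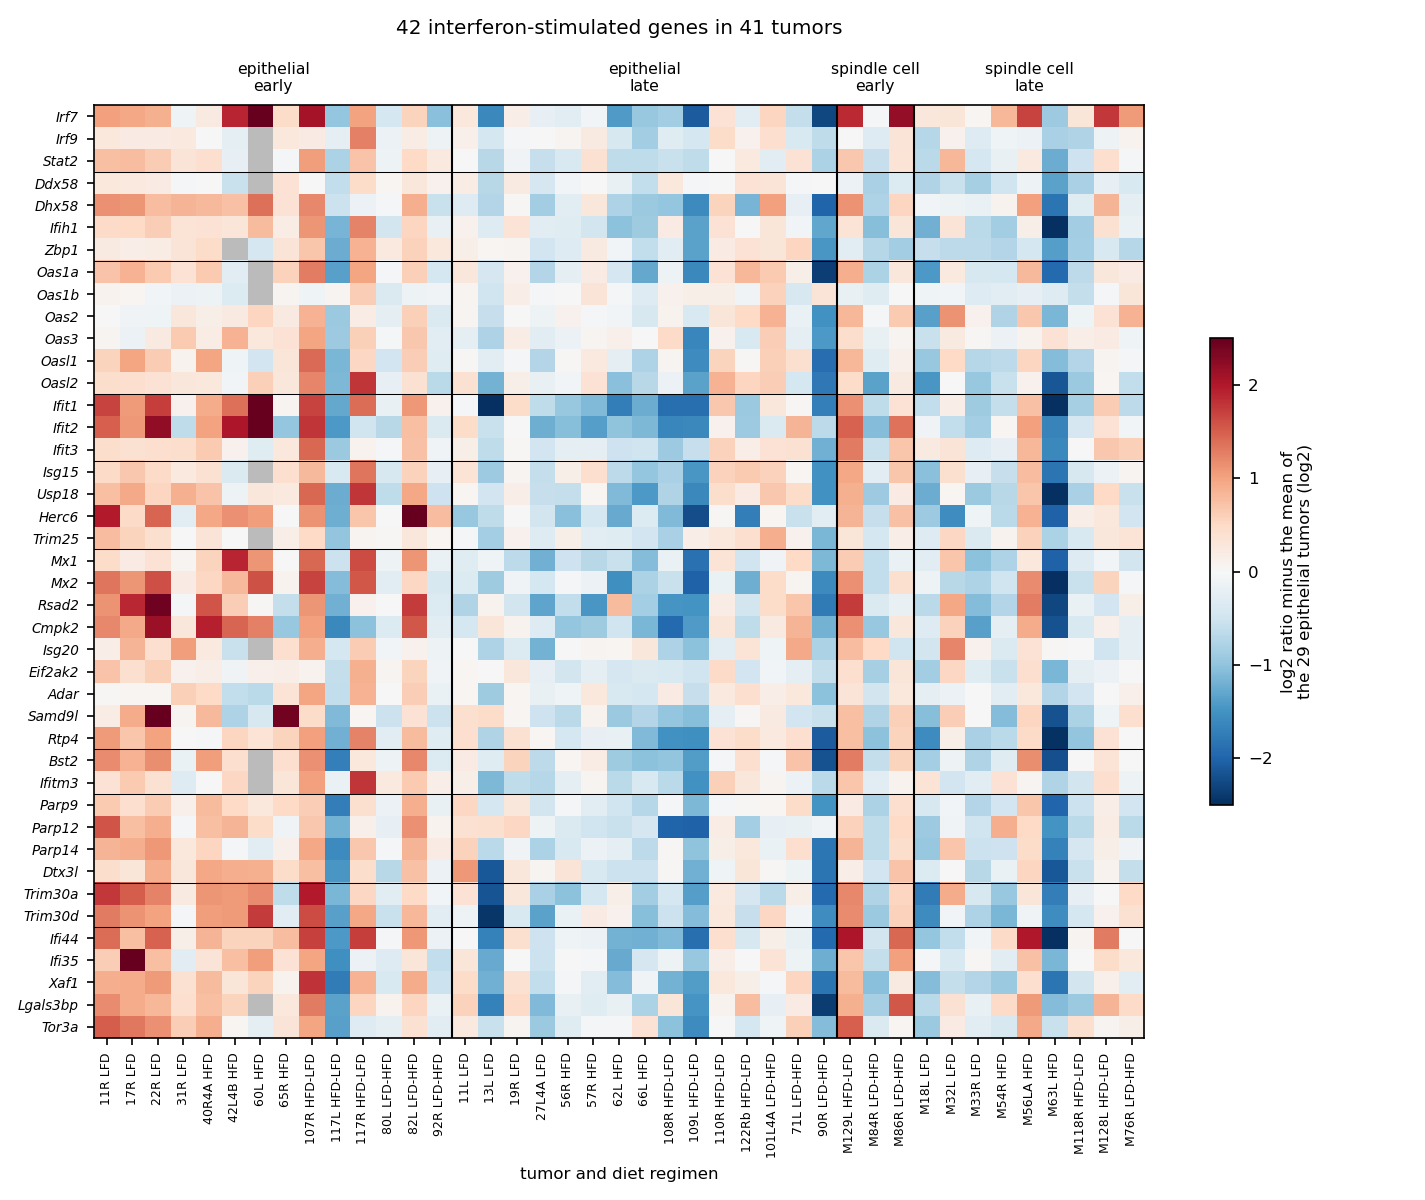
Log2 ratio of each of the 42 tested members (rows, ordered by role, with lines between roles) in each of the 41 tumors (columns, grouped by histology and onset), minus the gene's mean over the 29 epithelial tumors. Red is higher, blue is lower and grey is missing. The MSU_ of each tumor name is left out of the labels. Columns tend to have 1 colour from top to bottom, and most early epithelial columns are red, while MSU_117L is blue and MSU_80L and MSU_92R are pale.

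The study asked how early tumors differed from late ones, and the members were higher in early epithelial tumors. Of the 42 members, 41 had a higher mean in the 14 early than in the 15 late epithelial tumors, with a median difference of 0.67 on the log2 scale against 0.01 over all genes tested. At an adjusted p under 0.10 (limma, Benjamini-Hochberg over all genes), 5 members were called higher, which is 11.9% of the members against a background of 0.0958% of all genes called higher, and no member was called lower (background 0.0479%). These 5 were Herc6, Ifit1, Mx2, Mx1 and Ifi44, among 30 genes called in all. At an unadjusted p under 0.05 there were 33 members (78.6%) against 13.2% of all genes. The calls moved with single arrays and settings while the direction did not. Leaving out each tumor in turn left 0 to 22 members called and 41 of 42 higher each time. There were 22 calls without MSU_117L, 0 without MSU_107R, MSU_109L, MSU_11L, MSU_11R, MSU_122Rb, MSU_22R, MSU_40R4A or MSU_62L, 1 without MSU_13L, MSU_42L4B, MSU_82L or MSU_90R, and 2 without MSU_27L4A, MSU_60L or MSU_80L. With slide as a random block no member was called (smallest adjusted p = 0.141) with 41 of 42 higher.

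Of the tested members, 14 appear in the study's own table of functions, which holds genes of up-regulated and of down-regulated functions. The study chose them on these samples, so their values here are not independent evidence of a direction. These 14 were all higher in early tumors here, with a median difference of 1.15, and 4 of them were called. The study, in contrast, listed Ifit2 and Ifitm3 only under down-regulated functions, and Trim30a and Trim30d under functions of either direction. The 28 others had a median of 0.61 and 1 call, Ifit1, and 27 of the 28 were higher in early tumors. They were measured in the same tumors, so they are not independent evidence either. The study also listed IFIT1B under down-regulated functions, and this name was not counted as Ifit1 here.

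Herc6, the main ligase that joins the ubiquitin-like protein ISG15 to its targets in mice, had the smallest p. Its log2 ratio had a lowest value of 1.99, a median of 4.08 and a highest value of 6.03 in early tumors, and 1.01, 2.66 and 3.27 in late tumors. In 10 of the 14 early tumors it exceeded every late tumor, although MSU_117L, at the low end, lay below 12 of the 15 late ones. The difference was 1.51 ± 0.30 (SE), or 2.85-fold, with an adjusted p of 0.0594 (limma). Ifit1, which binds viral RNA that lacks the host's cap methylation and whose promoter is printed above, ran from 2.66 to 7.27 (median 5.01) in early tumors and from 1.45 to 4.62 in late tumors, with a late mean of 3.06. Its highest value came from MSU_60L, and 9 early tumors lay above every late one. The difference was 1.81 ± 0.37, or 3.51-fold, the largest of all members, with an adjusted p of 0.0765.

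The MX proteins are dynamin-like GTPases that trap viral components, and most inbred mouse strains carry defective Mx1 alleles. Mx1 ranged from 4.08 to 6.51 (median 5.02) in early tumors and from 2.74 to 5.11 (median 4.09) in late tumors. Its difference was 1.11 ± 0.25 (adjusted p = 0.0876, limma). Mx2 ranged from 2.54 to 5.31 (median 4.29) in early tumors and from 1.60 to 4.08 (median 3.19) in late tumors, a difference of 1.28 ± 0.28 with the same adjusted p. For Mx2, 9 early tumors exceeded all late tumors, and for Mx1 it was 6. Ifi44, an interferon-induced GTPase-like protein, ranged from 3.21 to 6.38 (median 5.41) in early tumors and from 2.71 to 5.06 (median 4.24) in late tumors. Its difference was 1.30 ± 0.30 (adjusted p = 0.0942), and 10 early tumors lay above every late one. In all 5 called genes the groups overlapped, and MSU_117L had the lowest value of the early tumors in each of them.

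**Figure D2:**
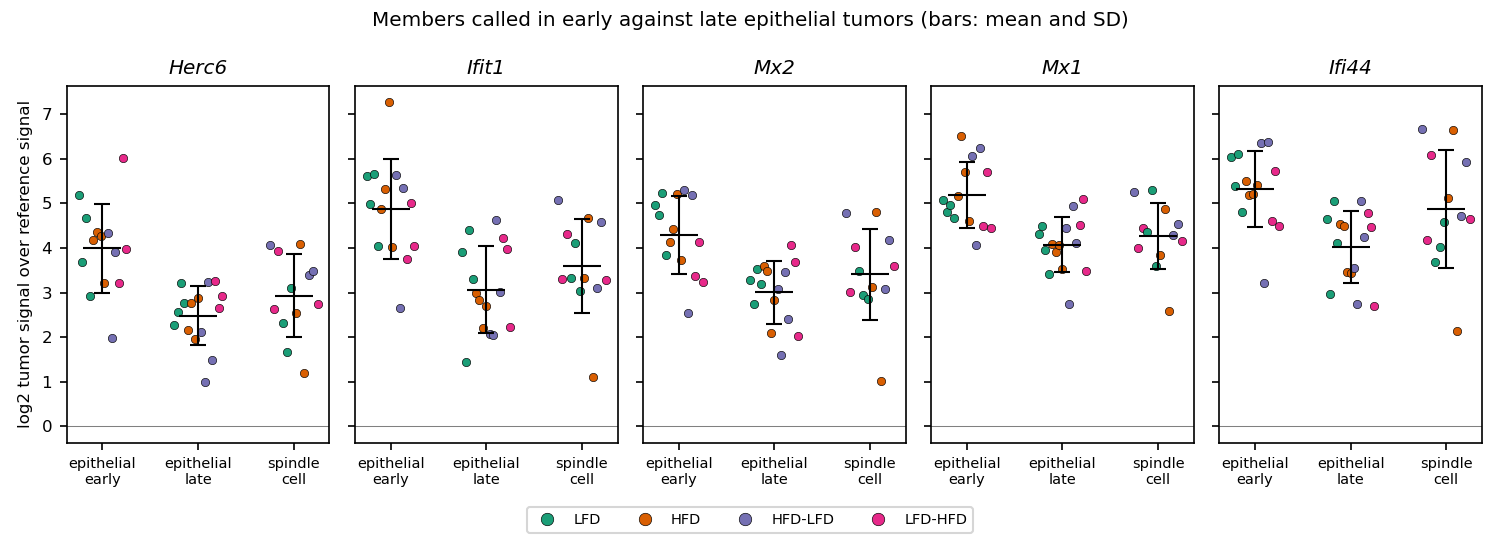
Log2 ratio of tumor over reference signal for the 5 members called in early against late epithelial tumors, with 1 point per tumor coloured by diet regimen, a bar at the mean and whiskers of 1 SD, for 14 early epithelial, 15 late epithelial and 12 spindle cell tumors. The early means sit above the late means by 1.11 to 1.81, while the point clouds overlap.

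The differences were spread over every role but not evenly. Among the transcription factors, Irf7, the inducible factor that amplifies interferon production, differed by 1.28 ± 0.35 (adjusted p = 0.146), Stat2 by 0.61 ± 0.17 (0.156) and Irf9 by 0.30 ± 0.15 (0.391). Irf7 ranged from 1.09 to 4.82 (median 2.86) in early tumors and from -0.13 to 2.68 (median 1.87) in late tumors. Among the nucleic acid sensors, Dhx58, which encodes the RNA helicase LGP2, was just outside the threshold, with a difference of 1.10 ± 0.26 and an adjusted p of 0.105. It ranged from 2.48 to 4.41 (median 3.83) in early tumors and from 1.03 to 4.07 (median 2.30) in late tumors, and all 14 early tumors lay above the late median. The 3 other tested sensors differed less, with 0.64 for Ifih1 (MDA5), 0.38 for Zbp1 and 0.11 for Ddx58 (RIG-I).

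The OAS enzymes make oligoadenylates that activate RNase L. All 6 tested members of this family had differences of at most 0.66, with a median of 0.49 and no call. Oas3 had the smallest p among them, with a difference of 0.49 ± 0.21 (adjusted p = 0.312), ranging from 1.34 to 3.23 in early and from 0.60 to 2.86 in late tumors. Oas1b, a catalytically inactive paralog, was the 1 member with a lower mean in early tumors, by -0.06 ± 0.11 (adjusted p = 0.849). The OAS probes measure closely related paralogs and may share signal. In the IFIT family, Ifit2 differed by 1.40 ± 0.44 (adjusted p = 0.187) and Ifit3 by 0.50 ± 0.20 (adjusted p = 0.277). Ifit2 ranged from 0.41 to 6.18 in early and from 0.22 to 2.71 in late tumors, so that the onsets differed more at the upper end of the range than at the lower.

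Beside Herc6, the ISG15 pathway members were higher in early tumors by 0.83 for Usp18, the protease that removes ISG15, and by 0.58 for Isg15 itself. Trim25 was higher by 0.31 at its brightest probe, while another probe gave -0.14. None of these genes was called. The effectors Rsad2 (viperin), which makes a chain-terminating nucleotide, and its genomic neighbour Cmpk2, a nucleotide kinase, differed by 1.16 ± 0.34 and 1.06 ± 0.35. Rsad2 ranged from -0.96 to 2.66 in early and from -1.52 to 1.03 in late tumors. The kinase gene Eif2ak2 (PKR), which halts translation, differed by 0.43, and the RNA-editing enzyme gene Adar by 0.27. Of the membrane restriction factors, Ifitm3, which hinders fusion of virus and endosome, differed by 0.81 ± 0.21 (adjusted p = 0.120) and Bst2 (tetherin), which holds virions at the cell surface, by 0.77 ± 0.30 (0.281). Ifitm3 ranged from 1.51 to 3.63 (median 2.19) in the 13 early tumors with a value and from 0.31 to 2.42 (median 1.44) in late tumors.

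Among the ADP-ribosyltransferases, Parp12 had the smallest p, with a difference of 0.81 ± 0.26 (adjusted p = 0.198) and a range of 1.42 to 4.18 in early and 0.60 to 3.13 in late tumors. Parp14, Parp9 and Dtx3l, the ubiquitin ligase partner of PARP9, lay between 0.52 and 0.66. The neighbouring TRIM30 genes had similar differences, with 1.24 ± 0.31 for Trim30a (adjusted p = 0.110, limma) and 1.14 ± 0.31 for Trim30d (adjusted p = 0.140). Whether this likeness is tied to their nearly identical promoter stretches was not tested. Trim30a ranged from 2.54 to 5.66 in early and from 1.53 to 4.04 in late tumors. Of the other induced genes, Lgals3bp, Xaf1, Ifi35 and Tor3a differed by 0.66 to 0.84 with no call. Of the members left out of the tests, Oas1g was well above background in 13 of 14 early and 11 of 15 late tumors and had medians of 2.71 and 1.10, while Ddx60 was well above background in 1 early and 0 late tumors.

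**Figure D3:**
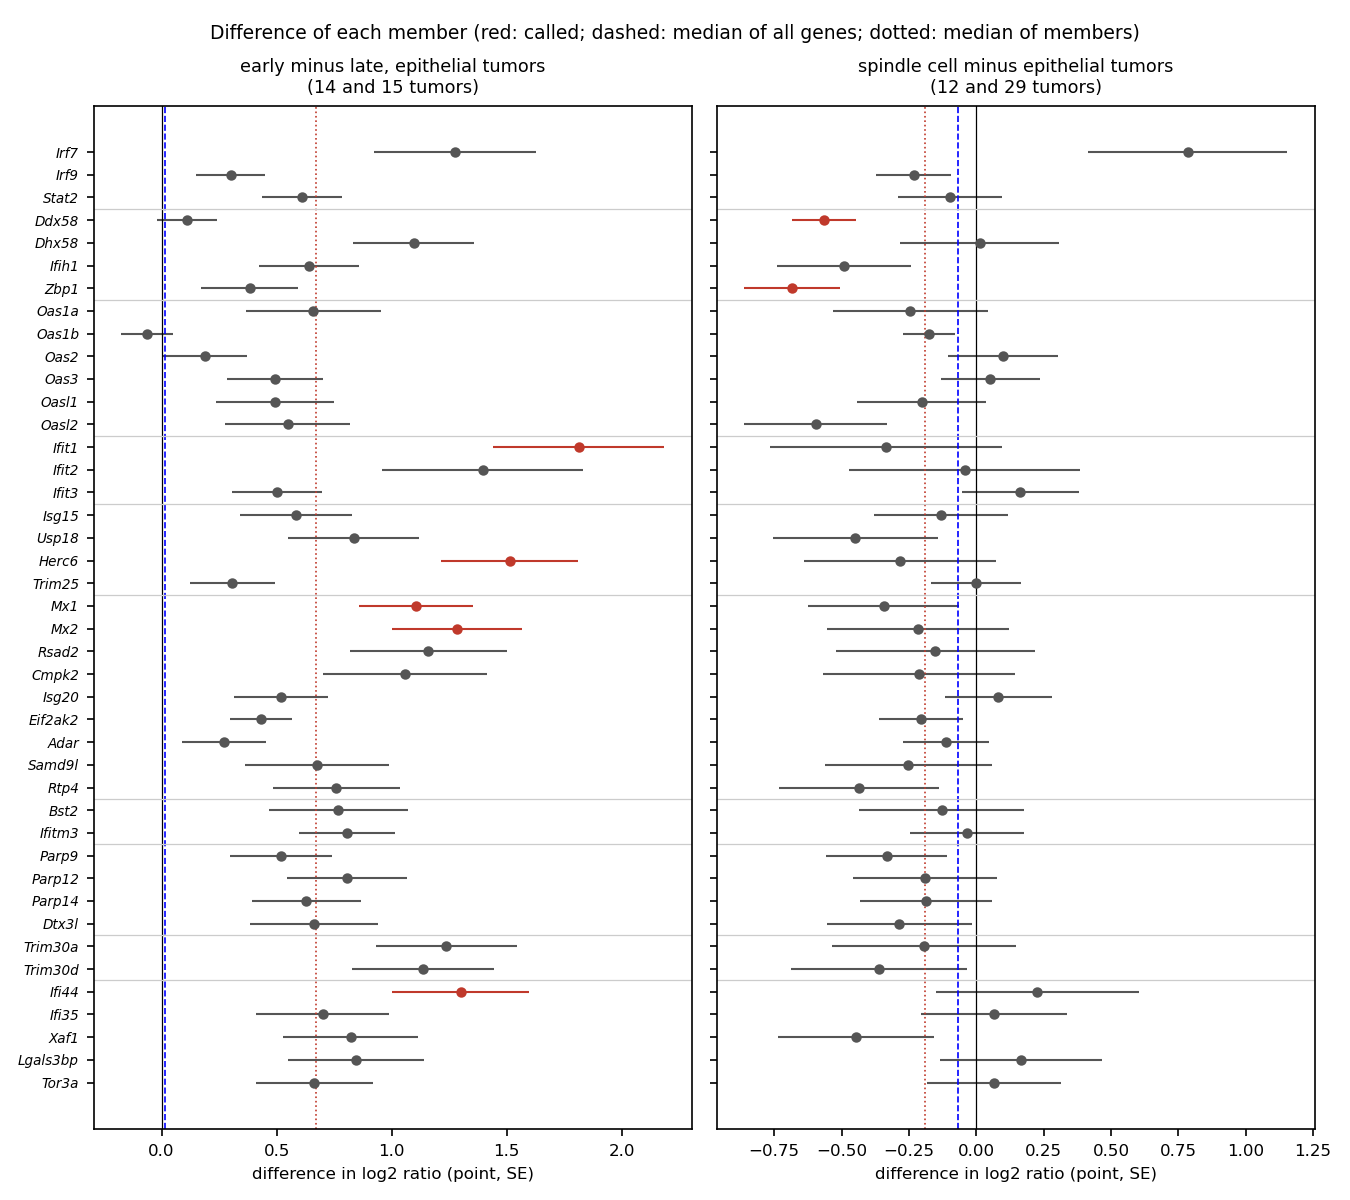
Difference in log2 ratio of each tested member (point) with its SE (line) between early and late epithelial tumors (left) and between spindle cell and epithelial tumors (right), in order of role. Red points are called, the dashed line is the median of all genes tested and the dotted line the median of the members. On the left 41 of 42 points are above 0, and on the right 32 are below 0.

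Between early and late epithelial tumors the members' median difference was 0.83 in the tumor channel and 0.05 in the reference channel, against -0.16 and -0.11 over all genes. The called genes differed in this respect. For Herc6 the difference was 0.85 in the tumor channel and -0.67 in the reference channel, for Ifit1 1.36 and -0.45, for Mx2 1.03 and -0.25, for Ifi44 1.11 and -0.19, and for Mx1 1.35 and 0.24. Except in Mx1, a lower reference signal in early tumors thus made up some of the difference in ratio. Early arrays were dimmer as a whole, with a median share of 66.6% of tumor-channel spots well above background (62.8% to 78.4%) against 75.4% in late tumors (52.4% to 94.9%). With that share as a covariate, added after the data were seen, 41 of 42 members were higher with a median of 0.77, and none was called (smallest adjusted p = 0.158).

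Within each regimen the members were higher in early tumors, by a median of 0.84 in LFD (42 of 42 members), 0.86 in HFD (40), 0.57 in HFD-LFD (38) and 0.44 in LFD-HFD (39). The tumor means over the members did not overlap between onsets in LFD, with 2.68 to 3.36 in early and 1.71 to 2.60 in late tumors. In HFD they did not overlap either, with 2.70 to 3.52 in early and 1.79 to 2.33 in late tumors. The tumors at the edges of that gap were MSU_65R (2.70) and MSU_57R (2.33), whose onset is in dispute, and with the matrix labels the HFD groups overlap. In HFD-LFD the early tumors MSU_107R and MSU_117R stood at 3.56 and 3.17 but MSU_117L at 1.42, inside the late range of 1.23 to 2.73. In LFD-HFD the early tumor MSU_82L stood at 3.22 and MSU_80L and MSU_92R at 2.28 and 2.29, inside the late range of 1.15 to 2.73. Tumors MSU_117L and MSU_117R carry the same label number, as do the LFD tumors MSU_11L (late) and MSU_11R (early). Whether the tumors of such a pair came from 1 mouse is not known. No member was called for an onset effect that differs between regimens (background 0.00479%), with 0 members at an unadjusted p under 0.05 and a smallest adjusted p of 0.705 (limma). Among single genes, the early minus late difference of Herc6 was 1.42 in LFD, 1.57 in HFD, 1.45 in HFD-LFD and 1.45 in LFD-HFD. That of Mx2 was 1.51, 1.37, 1.71 and 0.32, respectively.

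Onset and slide were largely bound together, since the LFD early, LFD late, HFD-LFD early and HFD-LFD late tumors each filled a slide of their own. On the 3 slides that held tumors of either onset, 32, 41 and 41 of 42 members were higher in early tumors. The median differences were 0.18 on slide 1 (2 early, 2 late), 0.98 on slide 2 (1 early, 3 late) and 0.82 on slide 8 (2 early, 2 late), which holds the 3 tumors of disputed label. On slide 1, onset coincides with regimen. In a fit of the tumors on these slides with slide as a fixed block, added after the data were seen, 41 of 42 members were higher with a median of 0.69, and none was called (smallest adjusted p = 0.167).

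**Figure D4:**
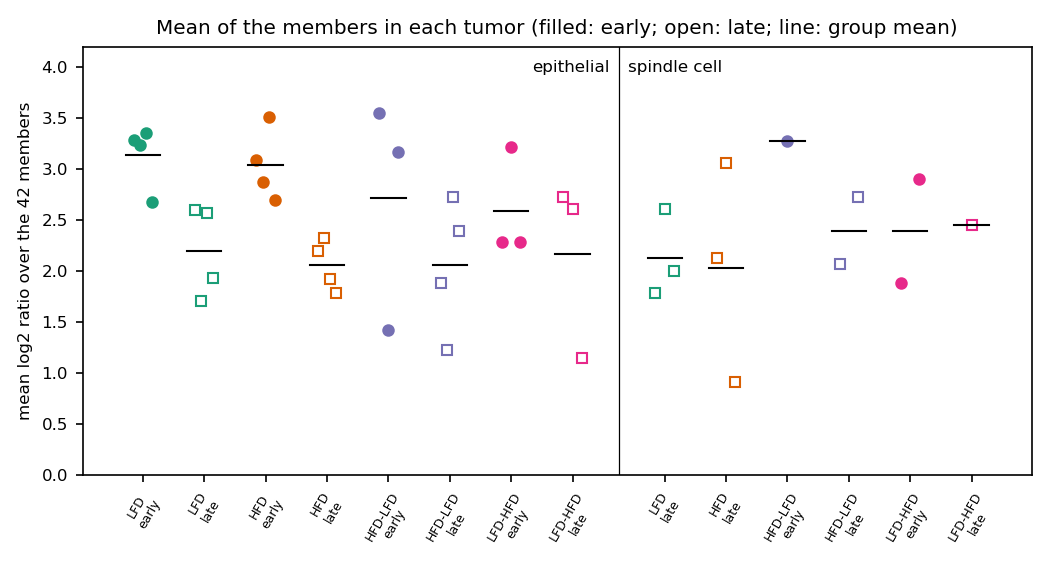
Mean log2 ratio over the tested members in each tumor (filled for early, open for late, coloured by regimen) by regimen, onset and histology, with a line at the group mean. Tumor MSU_60L, the highest of the early HFD group, is averaged over its 31 measured members. Early and late tumors separate in the LFD epithelial group and, with the labels of the scanner files but not with those of the matrix, in the HFD epithelial group, and overlap in the others.

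The members varied together from tumor to tumor. Over the 29 epithelial tumors, which share the reference RNA and the array platform, the median Pearson r of the 861 pairs of members was 0.68, ranging from -0.34 to 0.94, and 36 of 42 members had r over 0.7 with the mean of the other members. These correlations are given as a description. The closest followers were Ifi44 (0.95), Xaf1 (0.93), Bst2 (0.92), Mx2 (0.92) and Ifih1 (0.91). At the other end, Oas1b had r = 0.03, Ddx58 0.50, Samd9l 0.53 and Adar 0.60. Oas1b and Ddx58 also varied least, with SDs of 0.27 and 0.32, whereas Ifit2 and Ifit1 varied most, with SDs of 1.40 and 1.38. The median SD was 0.83 for members and 0.55 for all genes tested. Samd9l had a highest value of 5.26, in tumor MSU_22R, against a mean of 2.30.

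Outside the lists, the 10 genes with the highest r with the member mean over the epithelial tumors had r between 0.84 and 0.91. Those with a gene symbol were BC006779, Hsh2d, Phf11, Psmb10, Trim14, Trafd1 and I830012O16Rik, and 3 were named only by their probe. Psmb10 encodes an immunoproteasome subunit and had r = 0.87, and Hsh2d, an adaptor of lymphocyte signalling, had r = 0.88. None of the 10 was called in early against late epithelial tumors.

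The next question was whether spindle cell tumors, which are poorly differentiated, differed from epithelial ones. They differed little in these genes. The members' median difference was -0.19 against -0.07 for all genes, with 10 of 42 members higher. At an adjusted p under 0.05, 2 members were called lower (4.76%, against a background of 12.2%) and none higher (background 7.94%). These 2 were sensors. Ddx58 ranged from 1.66 to 2.82 (median 2.35) in the 28 epithelial tumors with a value and from 1.02 to 2.23 (median 1.82) in spindle cell tumors. Its difference was -0.57 ± 0.12 (adjusted p = 0.000815, limma), and a dimmer probe of Ddx58 gave -0.66. Zbp1, which senses nucleic acid in the Z conformation and can start cell death, ranged from 2.08 to 4.41 (median 3.74) in epithelial tumors and from 2.17 to 3.28 (median 2.86) in spindle cell tumors. Its difference was -0.68 ± 0.18 (adjusted p = 0.00562), but its other probe gave 0.10, and with the mean over the probes the adjusted p was 0.329. With outlier spots kept it was 0.288, and among late tumors only 0.0999.

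Of the members not called, Irf7 had a difference of 0.79 ± 0.37 (adjusted p = 0.128), with a median of 2.08 in epithelial and 2.71 in spindle cell tumors. Lower differences were found for Oasl2 (-0.60, adjusted p = 0.106), Ifih1 (-0.49, 0.159), Xaf1 (-0.45, 0.282), Irf9 (-0.23, 0.243) and Oas1b (-0.17, 0.200). Spindle cell tumors were as varied as epithelial ones, with member means from 0.92 to 3.28 against 1.15 to 3.56. The highest and lowest spindle cell tumors were MSU_M129L (early, HFD-LFD) and MSU_M63L (late, HFD). Of the fibroblast and mesenchyme markers 5 of 8 were called higher in spindle cell tumors, and of the endothelial markers 2 of 4, against 7.94% of all genes. The fibroblast list mean was -3.18 to -0.10 among epithelial tumors, against -2.95 to 0.41 among spindle cell tumors. Of 8 T cell markers, Cd8a was called lower (12.2% of all genes were), and their mean ranged from -1.39 to 2.68 and from -1.71 to 0.96. Of the 8 tested macrophage markers, C1qb was called higher. Of 5 plasmacytoid dendritic cell markers, Il3ra and Pacsin1 were called higher and Siglech lower. Of the 4 tested neutrophil markers Ngp was called lower, while S100a8, S100a9 and Retnlg had differences of 0.21, 0.63 and -0.77 and were not called. None of the 10 epithelial markers was called, and their median difference was -0.70. The part of these cells in the members' values was not tested.

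Diet was the study's main question, and it was asked of these genes in several ways. Between tumors of mice on HFD in puberty (21 tumors of HFD and HFD-LFD) and on LFD in puberty (20 tumors of LFD and LFD-HFD), the members' median difference was -0.06 against -0.02 for all genes. No member was called in either direction (backgrounds 0.00958% higher and 0% lower), none had an unadjusted p below 0.05 and none was called by SAM. The mean over the members was 2.43 ± 0.74 (SD, n = 21) and 2.46 ± 0.59 (SD, n = 20). Across the 4 regimens in epithelial tumors no member was called (background 0.474%). Parp12 was the 1 member with an unadjusted p under 0.05 (adjusted p = 0.280, limma), which is 2.38% of the members against 12.9% of all genes.

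Among the 6 pairs of regimens no member was called. The background of calls was 0.359% higher and 0.891% lower for HFD-LFD against LFD, 0.0958% and 0.168% for LFD-HFD against HFD, 0.0144% in each direction for HFD-LFD against HFD, and 0% in the others. At an unadjusted p under 0.05 there were 4 members for HFD-LFD against LFD (9.52%, against 13.5% of all genes). For HFD-LFD against HFD there was 1 (2.38%, against 13.4%), and for LFD-HFD against HFD-LFD 1 (2.38%, against 5.07%). There were 0 for the rest, against 9.40% of all genes for HFD against LFD, 6.54% for LFD-HFD against LFD and 10.4% for LFD-HFD against HFD. Several of these comparisons share the LFD tumors. In HFD-LFD against LFD the members with the smallest p were Parp12, Tor3a, Cmpk2 and Samd9l. Parp12 ranged from 2.49 to 4.18 (median 3.07) in LFD, from 2.05 to 3.46 (median 2.39) in HFD, from 0.60 to 3.29 (median 1.76) in HFD-LFD and from 2.41 to 3.75 (median 2.48) in LFD-HFD. Its HFD-LFD minus LFD difference was -1.27 ± 0.36 (adjusted p = 0.103, limma), and with onset as a covariate it was called (adjusted p = 0.0696). The epithelial tumors of LFD and of HFD-LFD shared no slide, so regimen and slide cannot be told apart in this contrast. Tor3a, an ATPase of the torsin family, had medians of 2.09 in LFD and 1.21 in HFD-LFD (adjusted p = 0.232), and Cmpk2 of 1.30 and -0.02 (adjusted p = 0.275). For Samd9l, a restriction factor of poxviruses, the medians were 2.60 and 2.07 (adjusted p = 0.328). Over the whole list the median differences from LFD were -0.19 in HFD, -0.26 in HFD-LFD and -0.35 in LFD-HFD. Over all genes they were -0.02, -0.07 and -0.02, respectively. These differences use the same LFD tumors, whose slides held no other regimen.

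In spindle cell tumors the onset difference ran the same way without a call. The early ones were MSU_M129L of HFD-LFD and MSU_M84R and MSU_M86R of LFD-HFD, while all those of LFD and HFD were late. Onset and regimen were thus partly bound together here. The mean over the members averaged 2.13 in LFD, 2.04 in HFD, 2.69 in HFD-LFD and 2.41 in LFD-HFD spindle cell tumors. All 42 members were higher in the 3 early than in the 9 late tumors, with a median difference of 0.50 against -0.02 for all genes. Leaving out 1 tumor moved this median between 0.24 (without MSU_M129L, 34 members higher) and 0.93 (without MSU_M84R, 42 higher). No member was called (background 0%) and none had an unadjusted p under 0.05 (limma). Tumor MSU_M84R, at a member mean of 1.88, lay inside the late range of 0.92 to 3.06, and MSU_M86R and MSU_M129L stood at 2.91 and 3.28. Ifi44 had values of 4.19, 6.09 and 6.67 in the early tumors and ran from 2.15 to 6.65 in the late ones. Trim30d ran from 1.85 to 3.96 in early and from 1.20 to 3.16 in late tumors. The onset effect was not found to differ between histologies, with no member called (backgrounds 0% higher and 0.00479% lower) and 0 at an unadjusted p under 0.05. The median of the members' difference between the onset effects was -0.25, spindle cell minus epithelial. With 3 early tumors this comparison is imprecise, and without MSU_M84R that median was 0.19. Among the 4 regimens in spindle cell tumors no member was called either (background 0%), none had an unadjusted p under 0.05 and the smallest adjusted p was 0.977.

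The rest of the interferon pathway was followed with a list of 66 genes, of which 54 were tested. In early against late epithelial tumors 42 of the 54 were higher, with a median difference of 0.24, and none was called. An unadjusted p under 0.05 was found for 16, all higher. Over all genes 52.2% were higher, with a median of 0.01, and 13.2% had an unadjusted p under 0.05 in either direction. The 9 tested ligands had differences from -0.17 to 0.36, with the smallest p for Ifna1 (0.34 ± 0.15, adjusted p = 0.322). Ifnb1 and Ifng did not pass the signal filter. The 6 tested receptors had a median of -0.03 and the smallest p for Ifngr1 (-0.25 ± 0.22, adjusted p = 0.649). Of the JAK-STAT and IRF factors, Irf1 differed by 0.59, and Jak1 and Jak2 by -0.07 and -0.04. Tbk1, a kinase of the sensing pathway, differed by 0.40 ± 0.18 (adjusted p = 0.332), and Samhd1, listed with the negative regulators, by 0.47 ± 0.22 (adjusted p = 0.357). The genes that respond to interferon gamma were closest to the members. Of these, 12 of 13 were higher in early tumors, with a median of 0.93, and Nlrc5, the activator of MHC class I genes, had the smallest p (1.15 ± 0.29, adjusted p = 0.116). Their mean followed the mean of the members at r = 0.92 over the 29 epithelial tumors, a description. The chemokine genes Cxcl9 and Cxcl10 differed by 1.06 and 1.29. In spindle cell against epithelial tumors 4 of the 54 were called higher (Tbk1, Tlr9, Unc93b1 and Socs3) and 2 lower (Il28ra and Irf3), against 7.94% and 12.2% of all genes.

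Markers of cell types that a tumor can hold were read beside the onset difference, and none of them was called. The T cell markers were higher in early tumors in 3 of 8 genes, with list means of -1.39 to 2.42 in early and -1.30 to 2.68 in late tumors. The 4 tested NK and cytotoxic markers were all higher, with a median of 0.31 and list means of -0.34 to 1.76 in early and -0.49 to 1.19 in late tumors, and Gzmb had the largest of these differences at 1.08 (adjusted p = 0.251). Leukocyte markers were higher in 3 of 3 with a median of 0.12, and their means ranged from 0.34 to 2.11 in early and from 0.44 to 2.20 in late tumors. Macrophage markers were higher in 6 of 8 (median 0.11), plasmacytoid dendritic cell markers in 2 of 5 (median -0.04), and epithelial markers in 6 of 10 (median 0.05). Fibroblast and mesenchyme markers were higher in 5 of 8 (median 0.25) and B cell markers in 0 of 3 (median -0.50). For neutrophils it was 2 of 4 (median -0.29), for endothelial cells 1 of 4 (median -0.08) and for skeletal muscle 1 of 4 (median -0.06). Over the 29 epithelial tumors the list means followed the member mean at r = 0.52 for NK and cytotoxic cells, 0.51 for leukocytes and 0.44 for epithelial cells. It was 0.32 for plasmacytoid dendritic cells, 0.30 for T cells, 0.18 for macrophages, 0.09 for endothelial cells and 0.03 for B cells. Neutrophils (-0.09), skeletal muscle (-0.12) and fibroblasts and mesenchyme (-0.18) had negative values. The part of these cells in the members' difference was not tested.

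Several members were measured by more than 1 probe, and the probes did not always give the same answer. For Herc6, the other probe gave an early minus late difference of 1.02 against 1.51 for the brightest probe. The dimmer probe of Ddx58 gave 0.82 against 0.11, that of Zbp1 1.20 against 0.38, and the dimmest of the 3 probes of Oas1b 0.98 against -0.06. Over the epithelial tumors these dimmer probes followed the brightest ones at r = 0.56, 0.49 and 0.30, respectively. Trim25 was the reverse, with -0.14 at the dimmer and 0.31 at the brightest probe. These probes were almost equally bright, with mean log2 signals of 14.025 and 14.034, and did not follow each other (r = 0.002). The direction for Trim25 thus depends on the probe.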

How the data were processed

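RNA of 41 tumors and a common reference was hybridised on 2-color arrays. The authors deposited scanner files that give each spot's intensity, background-subtracted and dye-normalized by Feature Extraction (11.0.1.1 for epithelial, 10.5.1.1 for spindle cell tumors in the file headers, 8.5.1.1 in the submitters' processing notes), and a matrix of log2 ratios that the authors had normalized. Here the log2 of red over green processed signal was used, outlier spots were set missing, and the brightest probe of each gene was kept where both signals exceeded 10 on 80% of arrays. limma 3.58.1 in R 4.3.3 (lmFit, eBayes) tested all genes, with Benjamini-Hochberg adjustment, at 0.10, or 0.05 for histology. Tumors came from the labels, and how many mice they represent is not given in the sources used here. The SAM statistic (100 permutations), normexp (offset 50) with loess and other settings were alternatives. Fits were tested on simulated data. Values are given for called members (at most 12), the 8 of smallest p where fewer were called, the smallest p of each role, called or smallest-p pathway genes, and the 10 outside genes most like the member mean. The values of 1 pathway gene are not reported here. Members, lists and tests were chosen with earlier results of these data known. Spot brightness and the number of tumors limit the precision.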

Additional observations from a re-analysis of the deposited data

Results flagged for a closer look

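Within groups of 4 to 10 tumors, 60 sets of values were searched for a tumor far from the others, and 2 were found. By chance about 1 in 20 sets would be flagged, so 2 among 60 is no more than chance gives. Ifit1 in the 9 late spindle cell tumors was 1.10 in MSU_M63L and between 3.05 and 4.67 in the others. Herc6 in the 4 early epithelial HFD tumors was 3.23 in MSU_65R and between 4.19 and 4.36 in the others, and MSU_65R is a tumor whose onset label is in dispute.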

How the results depend on the processing

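The direction of the early against late difference held in all 21 alternatives and in every fit that left out 1 tumor, with at least 39 members higher and medians of 0.61 to 0.77 and 0.61 to 0.80, respectively. The count of 5 called members did not. It was 0 with normexp and loess signals, without the arrays of MSU_42L4B, MSU_60L and MSU_M86R, at an adjusted p under 0.05, with a random block for slide, with a fixed block for slide or scan session, with the matrix labels for MSU_40R4A, MSU_57R and MSU_65R, and without those 3 tumors. It was also 0 under the 3 alternatives chosen after seeing the data, namely the share of spots well above background as a covariate, only the slides with both onsets, and without the LFD tumors. It was 1 in the authors' matrix, 2 without a filter on low signal, with the first tumor of each shared label number or with all 41 tumors and histology as a covariate, 3 after centring each array on its median, and 18 with the SAM statistic. Without 1 tumor it ranged from 0 to 22. The 2 members called in spindle cell against epithelial tumors were 1 with the mean over probes or with outlier spots kept and 4 with SAM, and 2 without any 1 tumor. Among pairs of regimens 1 member was called without the arrays of MSU_42L4B, MSU_60L and MSU_M86R or with onset as a covariate, and 0 to 1 without 1 tumor. The other comparisons kept 0 calls. No called member changed sign, but small list medians did. The spindle cell minus epithelial median of -0.19 became 0.02 with regimen and onset as covariates and 0.07 among late tumors only. The pubertal HFD minus LFD median of -0.06 became 0.02 without MSU_M63L, and that of the onset effect between histologies (-0.25) became 0.19 without MSU_M84R. The causes were not tested. No paired analysis was run. The labels give no replicate numbers, and numbers assigned in accession order pair no tumors. However, 3 label numbers each stood on 2 tumors. These were MSU_11L and MSU_11R, MSU_117L and MSU_117R, and MSU_56R and the spindle cell tumor MSU_M56LA. Whether the tumors of such a pair came from 1 mouse is not known, and the fits treated them as independent.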

Other observations

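Of the 30 genes called in early against late epithelial tumors 5 were members and none was in the pathway list. The following 4 of the others were chosen after their values were seen, and no enrichment was tested. Gbp6, a guanylate-binding GTPase, was higher in early tumors by 1.21 ± 0.26 (SE, adjusted p = 0.0876, limma), and Batf2, a transcription factor induced by interferon gamma, by 1.26 ± 0.27 (adjusted p = 0.0876). H28 was higher by 1.90 ± 0.42 and the pseudogene Slfn10-ps by 1.54 ± 0.34, each with the same adjusted p.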
